A study of Mus musculus with 20 samples.

Results

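DNA replication genes are the 40 genes whose products license origins, unwind DNA, copy it, join the new strands, supply nucleotides and pack the copies into chromatin. They were listed by gene symbol, with earlier results of these data known. All 40 were found among the 16740 genes counted in spleen and peripheral lymph nodes (pLN) and among the 16784 counted in mesenteric lymph nodes (mLN). RNA sequencing covered 20 libraries of sorted CD4+ T cells from C57BL/6 mice that were 14 weeks old. WT mice carried Foxp3Cre, a YFP-Cre fusion expressed from the Foxp3 gene. DKO mice carried the same Cre together with floxed Tet2 and Tet3 (Tet2/3 fl/fl Foxp3Cre), so that both genes are deleted in cells that express Foxp3. In each tissue the 4 groups were WT and DKO Treg cells (CD4+YFP+, Foxp3+) and WT and DKO CD4+ T cells without Foxp3 (CD4+YFP-, Foxp3-), with 2 libraries a group in spleen and pLN and 3 in mLN. In DKO mice the Foxp3- cells can include former Treg cells that lost Foxp3 after the deletion. The study calls the samples of a group biological replicates, while the labels only number them, and p-values measure the spread between these samples. In its account the 2 DKO mice of the spleen and pLN samples were littermates that differed in how far the spleen was enlarged, and the labels do not say which replicate came from which mouse.

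Before S phase, the origin recognition complex, Cdc6 and Cdt1 load the MCM2-7 helicase onto origins, and Gmnn blocks further loading by binding Cdt1. Cdc45 and the GINS complex then switch the helicase on, and the polymerases copy DNA with the clamp Pcna behind them. Many of these genes are transcribed under E2F transcription factors as cells leave quiescence, so that resting T cells hold little of their mRNA and dividing T cells much more. In RNA from a pool of cells, a larger share of cells in cycle and more mRNA in each cell cannot be told apart.

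Libraries held between 9998478 and 15449158 counted reads, and the lowest count of any member in any library was 7, for Orc1. Levels are given as CPM, read counts relative to the library size after edgeR's TMM scaling. Foxp3 lay between 152.5 and 418.9 CPM in Treg cells and between 0.211 and 2.75 CPM in Foxp3- cells. Gene-level counts of Tet2 and Tet3 include exons outside the floxed parts and so do not check the deletion. In mLN Treg cells Tet2 lay between 10.4 and 10.8 CPM in WT and between 7.69 and 12.8 CPM in DKO mice, and Tet3 between 69.0 and 86.5 and between 48.4 and 73.3 CPM, so that the groups overlapped for both. In Treg cells of spleen and pLN Tet2 read 2.08 and 1.11 CPM in WT libraries against 8.01 and 2.05 CPM in DKO libraries, and Tet3, higher in both DKO libraries, 30.97 and 30.6 CPM against 60.96 and 38.1 CPM. The 5 T cell markers summed to between 3416 and 5632 CPM. Sums over markers of other cells were higher in DKO mice for several lists, while some single markers in them were not. In mLN Treg cells the 11 myeloid markers summed to between 3.97 and 6.74 CPM in WT mice, where Cd14 and Adgre1 were at 0, and to between 17.3 and 58.3 CPM in DKO mice. The 6 CD8 and NK markers summed to between 25.6 and 31.6 CPM and to between 77.8 and 166.3 CPM, most of it Klrb1c in DKO mice. The 5 plasma cell markers counted there summed to between 128.6 and 133.5 CPM in WT and to between 197.2 and 263.4 CPM in DKO mice. Xbp1, the highest of them, had means of 117.3 CPM in WT and 117.8 CPM in DKO mice. The 10 B cell markers summed to between 31.1 and 39.4 CPM and to between 16.7 and 43.7 CPM, and 3 of them were called higher and 1 lower in DKO mice. Their part in the results was not tested.

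Genes were called changed at an adjusted p of at most 0.05 (edgeR quasi-likelihood test, Benjamini-Hochberg over all genes of a table) and a fold change of at least 1.5. In mLN Treg cells, 28 of the 40 members rose in DKO mice and 0 fell, while 8.5% of all 16784 genes rose. By the adjusted p alone 36 members were higher, against 11.1% of all genes. All 3 DKO libraries lay above all 3 WT libraries for 38 members, against 21.3% of all genes, and below them for 1, Rpa1. The median log2 fold change of the members was 0.78, beside 0.00 for all genes. In Foxp3- cells of mLN 5 members rose and 0 fell, while 3.12% of all genes rose, and the 5 were 0 when any 1 WT Foxp3- library was left out or the 2 groups were fitted alone. In spleen and pLN 0 members were called in either cell type, where 1.14% of all genes rose in Treg and 0.77% in Foxp3- cells, and 36 of 40 had a positive log2 fold change in Treg cells, against 51.1% of all genes, and 38 of 40 in Foxp3- cells, against 47.7%.

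**Figure D1:**
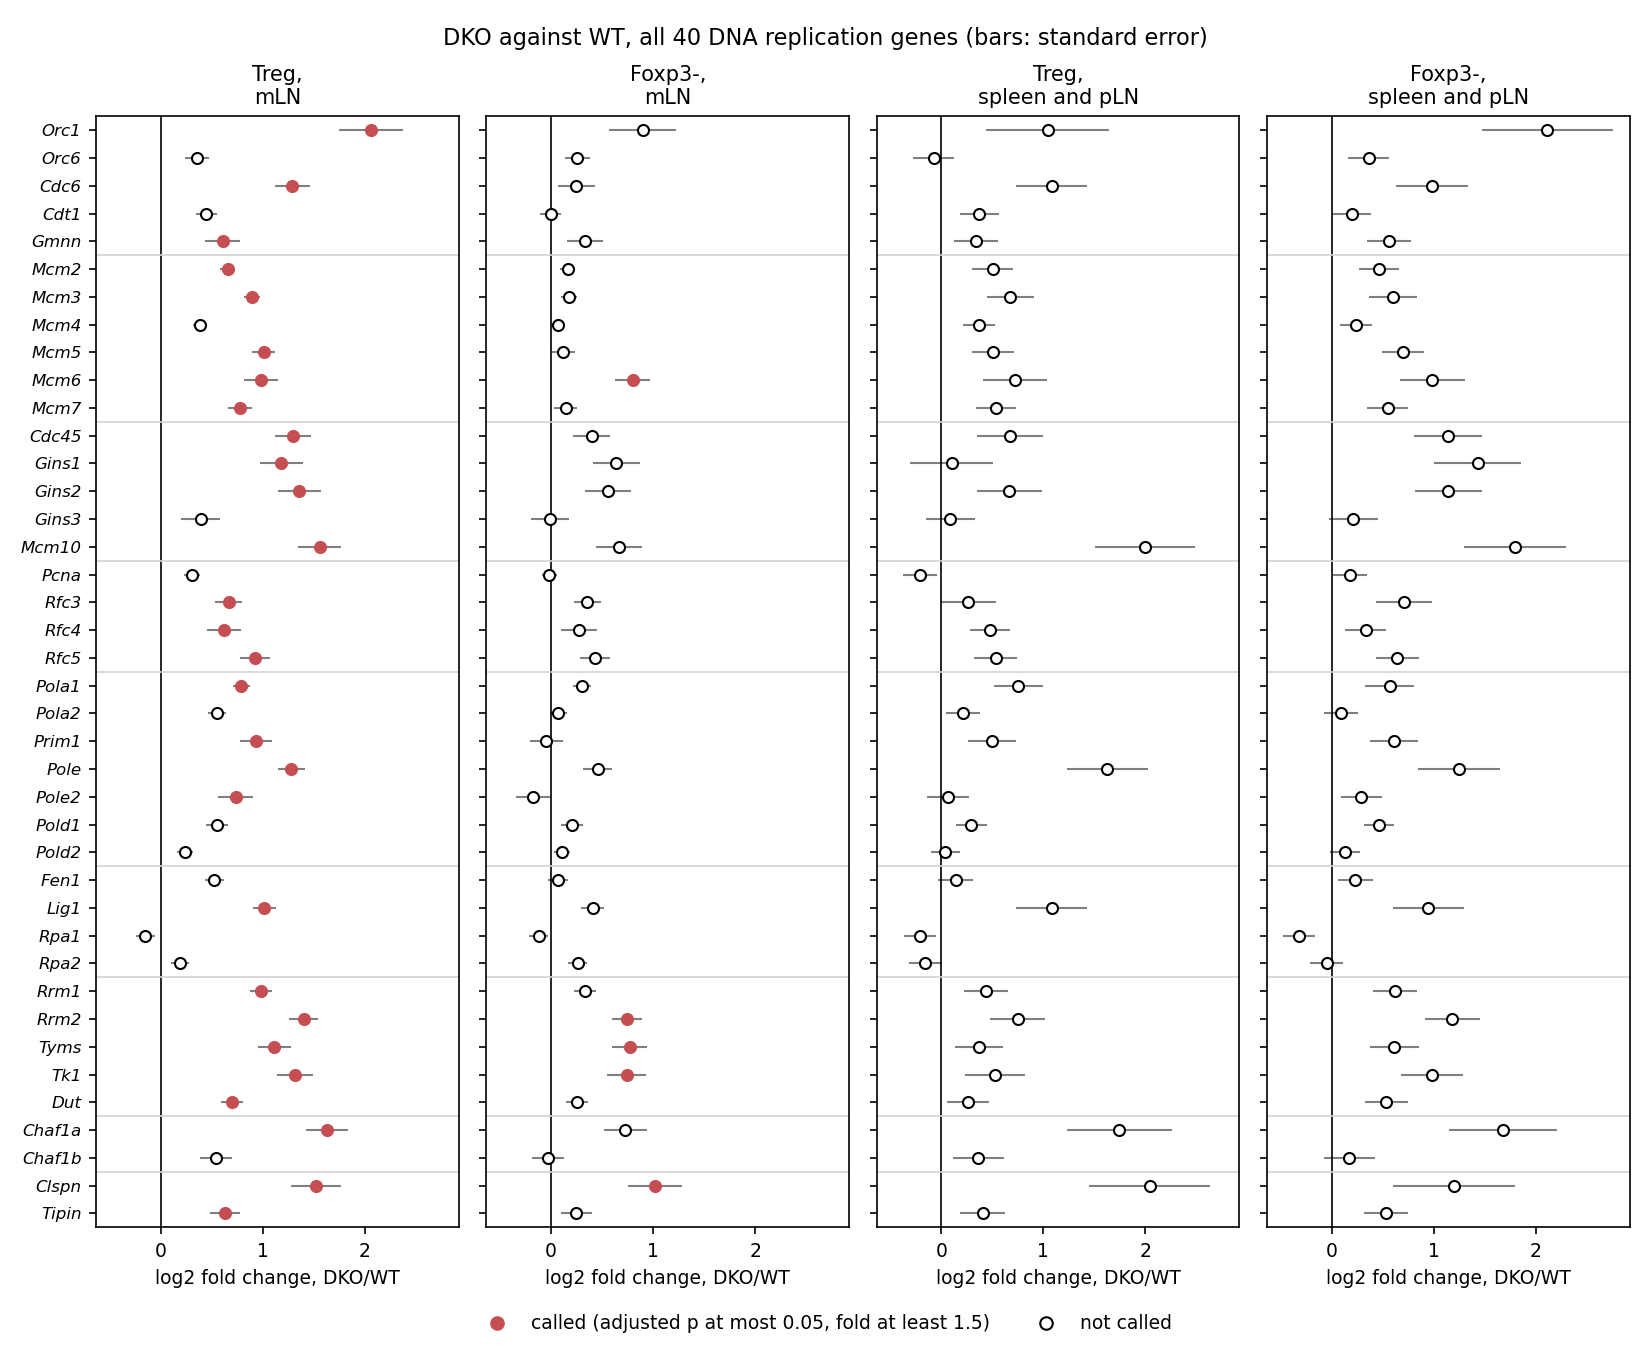
Log2 fold change of DKO over WT for each of the 40 DNA replication genes, ordered by role, in both cell types and both tissues. The x axis is the fitted log2 fold change, bars are standard errors and filled points passed the call: 28 members were called higher in Treg cells and 5 in Foxp3- cells of mLN, and 0 in spleen and pLN.

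The mean of log2 CPM over the 40 members gives each library a single value, a description that was not tested. In mLN it was 4.61, 4.73 and 4.8 in WT Treg cells and 5.40, 5.69 and 5.59 in DKO Treg cells, with group means of 4.71 ± 0.09 and 5.56 ± 0.14 (SD, n = 3). Foxp3- cells of mLN had values of 4.34, 4.34 and 4.33 in WT and 4.65, 4.57 and 4.73 in DKO mice. The order was WT Foxp3-, DKO Foxp3-, WT Treg and DKO Treg cells, where DKO Foxp3- and WT Treg cells overlapped and the other neighbours did not. In spleen and pLN the mean was 4.60 and 4.51 in WT Treg cells and 5.18 and 4.98 in DKO Treg cells. Foxp3- cells of that table had values of 4.35 and 4.30 in WT and 5.29 and 4.55 in DKO mice. Replicate 1 of those DKO Foxp3- cells was thus the highest of the 8 libraries, and replicate 2 lay within the range of WT Treg cells.

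**Figure D2:**
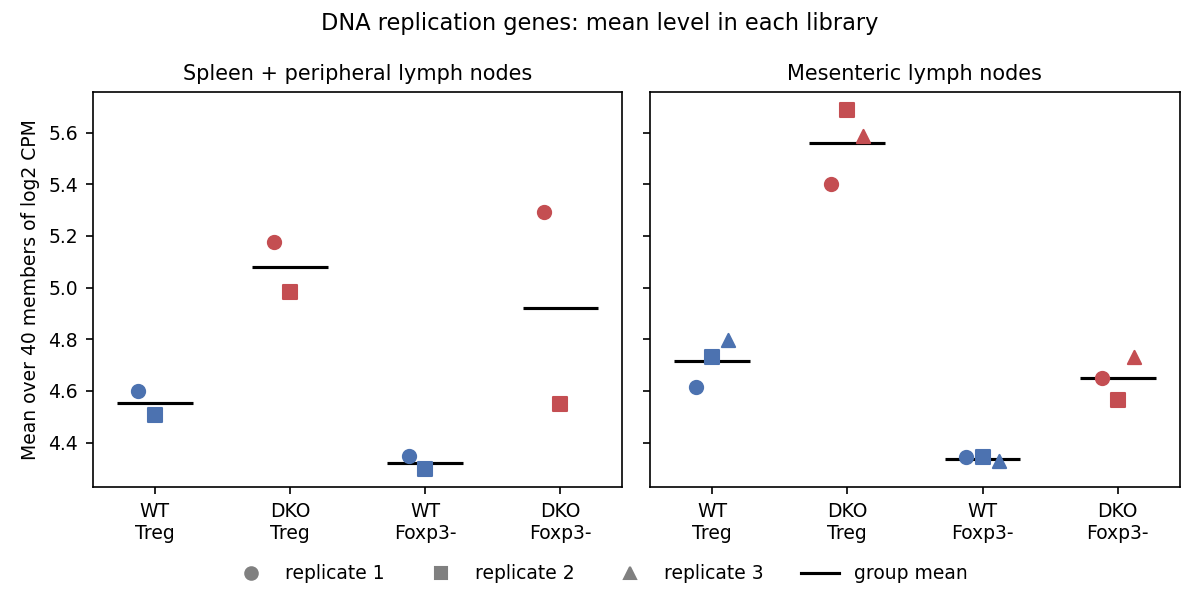
Mean of log2 CPM over the 40 members in each library, by group, in spleen and pLN (2 libraries a group) and in mLN (3 a group), with a line at each group mean. In mLN the DKO Treg libraries, at 5.40 to 5.69, lie above every other library of the table.

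Levels of different genes can be compared per transcript length, in the deposited TPM. Pcna was the highest member in WT Treg cells of mLN with 345.7 ± 13.0 TPM (SD, n = 3), followed by Mcm6 with 154.7 ± 4.4 TPM and Rpa1 with 139.7 ± 2.6 TPM. The lowest were Orc1 with 0.99 ± 0.27 TPM, Clspn with 2.39 ± 0.74 TPM and Cdc6 with 2.81 ± 0.50 TPM. Pcna and Orc1 were the highest and the lowest member in all 4 groups of mLN. In TPM, Rrm2 ranked 14 of the 40 in WT and 10 in DKO Treg cells, and Tk1 ranked 25 and 18.

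Promoters of 34 of the 40 members were matched in RefSeq (GRCm38.p6), each from 250 bases before to 50 after the annotated start. An E2F-type motif (TTTCGCGC, TTTGGCGC, TTTCCCGC or TTTGCCGC, on either strand, matches may overlap) was found in 14 of the 34 (41.2%) and in 2.6% of 27025 genes. The letters CCAAT were in 61.8% of the members and 41.1% of genes, and TTTGAA in 14.7% and 20.2%. In mLN Treg cells 11 of the 14 members with the E2F motif rose, with a median log2 fold change of 0.84, and 12 of the 20 without it, with a median of 0.68. A match is a string of letters and not a measured binding site. The motif is in capitals in these windows of 30 bases, each read 5′ to 3′ along its gene, first for licensing, helicase and fork genes that rose and then for the 3 members with the motif that were not called. Only 1 match per gene is in capitals: Mcm5 (GCGCCAAA) and Mcm6 (GCGCGAAA) have a second match that overlaps the one marked, and Mcm3, Mcm6 and Mcm7 hold a further match elsewhere in the promoter.
Orc1, chr4:108579416-108579445, plus strand: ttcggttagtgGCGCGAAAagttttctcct
Cdc6, chr11:98908002-98908031, plus strand: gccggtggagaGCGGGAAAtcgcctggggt
Mcm3, chr1:20820275-20820304, minus strand: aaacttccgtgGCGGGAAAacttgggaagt
Mcm5, chr8:75109345-75109374, plus strand: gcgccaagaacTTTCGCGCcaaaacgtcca
Mcm6, chr1:128359797-128359826, minus strand: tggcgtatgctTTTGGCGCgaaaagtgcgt
Mcm7, chr5:138171849-138171878, minus strand: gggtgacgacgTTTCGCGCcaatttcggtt
Clspn, chr4:126556990-126557019, plus strand: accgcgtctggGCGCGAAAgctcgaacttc
Cdt1, chr8:122568035-122568064, plus strand: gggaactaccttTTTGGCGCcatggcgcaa
Gins3, chr8:95633507-95633536, plus strand: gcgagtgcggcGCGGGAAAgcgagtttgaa
Pold1, chr7:44548766-44548795, minus strand: cacggcggcgtatcttgtgGCGGGAAAagc

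Chaf1a, Mcm10 and Rrm2, which also rose, hold none of these letters in the window. On mm9, the build of the counts, GENCODE M1 places Orc1 at chr4:108252028-108288633, Mcm3 at chr1:20793055-20810359, Mcm5 at chr8:77633427-77652338 and Mcm6 at chr1:130228168-130256233. The counts sum reads over the exons of each gene.

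Of the 5 licensing genes 3 rose in DKO Treg cells of mLN. Orc1, a subunit of the origin recognition complex, read 1.23, 2.07 and 1.57 CPM in WT libraries and 5.65, 7.69 and 7.05 CPM in DKO libraries, a log2 fold change of 2.06 ± 0.31 (SE; adjusted p = 0.000931), the highest of the 40 members. Cdc6, an ATPase that helps load the helicase, read 6.66, 8.68 and 6.39 CPM in WT libraries and 16.1, 19.05 and 18.1 CPM in DKO libraries (log2 fold change 1.29 ± 0.17, adjusted p = 0.000402). The groups did not overlap for either gene. Gmnn, the inhibitor of loading, rose 1.52-fold, a call that was lost with a gene length correction and when WT Treg replicate 1 or 2, DKO Treg replicate 2, WT Foxp3- replicate 1 or 3 or DKO Foxp3- replicate 1 was left out. Cdt1 was 1.36-fold higher (adjusted p = 0.00995), under the fold minimum, and Orc6 was not called at 1.28-fold (adjusted p = 0.0529).

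Of the 6 subunits of the MCM2-7 helicase, the ring that unwinds DNA, 5 rose, by between 1.57-fold for Mcm2, whose call was lost with a gene length correction, and 2.01-fold for Mcm5. Mcm5 read 90.6, 89.6 and 103.2 CPM in WT libraries and 155.4, 217.6 and 196.2 CPM in DKO libraries (log2 fold change 1.01 ± 0.12, adjusted p = 0.000179). Mcm6 read 247.9, 251.8 and 238.4 CPM in WT libraries and 454.5, 546.8 and 456.7 CPM in DKO libraries (log2 fold change 0.98 ± 0.17, adjusted p = 0.00179). Both separated the groups with a wide gap. Mcm3 had the smallest adjusted p of the members, with 109.1, 113.8 and 115.0 CPM in WT libraries and 194.1, 224.0 and 210.7 CPM in DKO libraries (log2 fold change 0.90 ± 0.08, adjusted p = 5.03e-05). Mcm4, the one subunit not called, read 161.7, 166.7 and 165.3 CPM in WT libraries and 202.3, 221.7 and 219.7 CPM in DKO libraries, which did not overlap but differed by 1.3-fold (adjusted p = 0.00219).

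Of the 5 origin firing genes 4 rose. Mcm10, which helps start the fork, read 5.83, 5.95 and 7.18 CPM in WT libraries and 14.7, 19.4 and 21.6 CPM in DKO libraries (log2 fold change 1.56 ± 0.21, adjusted p = 0.000413). Gins2, of the GINS complex, read 4.85, 6.45 and 6.89 CPM in WT libraries and 10.9, 17.2 and 18.5 CPM in DKO libraries (log2 fold change 1.36 ± 0.21, adjusted p = 0.00111). Cdc45 and Gins1 rose 2.45-fold and 2.27-fold. Gins3, a further subunit of the same complex, was not called, with 7.56, 8.77 and 5.71 CPM in WT libraries and 9.47, 9.77 and 9.73 CPM in DKO libraries (log2 fold change 0.39 ± 0.19, adjusted p = 0.177).

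The 3 clamp loader subunits rose, and the clamp stayed under the fold minimum. Rfc5 read 23.3, 23.9 and 24.9 CPM in WT libraries and 34.8, 55.3 and 46.7 CPM in DKO libraries (log2 fold change 0.92 ± 0.14, adjusted p = 0.00105). Rfc3 read 13.7, 13.1 and 16.03 CPM in WT libraries and 21.00, 24.9 and 21.9 CPM in DKO libraries (log2 fold change 0.66 ± 0.13, adjusted p = 0.00376), and Rfc4 rose 1.53-fold. With a gene length correction Rfc3 and Rfc4 were not called, and Rfc4 was not called either without any 1 of the 3 WT Treg libraries or without DKO Treg replicate 2. Pcna, the ring that holds polymerases on DNA, read 236.7, 244.6 and 234.7 CPM in WT libraries and 276.4, 323.8 and 285.5 CPM in DKO libraries (log2 fold change 0.31 ± 0.08, adjusted p = 0.0131). Its groups did not overlap, and the difference of 1.24-fold was not called.

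Of the 7 polymerase genes 4 rose. Pole, the catalytic subunit of the leading strand polymerase epsilon, read 19.4, 19.8 and 24.00 CPM in WT libraries and 44.99, 57.6 and 50.8 CPM in DKO libraries (log2 fold change 1.28 ± 0.13, adjusted p = 0.000113). Prim1, the primase subunit that makes RNA primers, read 14.6, 13.6 and 14.3 CPM in WT libraries and 25.4, 30.98 and 25.1 CPM in DKO libraries (log2 fold change 0.94 ± 0.16, adjusted p = 0.0016). Pola1, of polymerase alpha, and Pole2, the second subunit of epsilon, rose 1.73-fold and 1.66-fold, and the call of Pole2 was lost without WT Treg replicate 2. Pola2, Pold1 and Pold2 were 1.47-fold, 1.46-fold and 1.18-fold higher at adjusted p values of 0.00114, 0.00425 and 0.0464, under the fold minimum.

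Of the 4 genes of strand joining and single-strand binding 1 rose. Lig1, the ligase that joins Okazaki fragments, read 44.9, 57.4 and 53.2 CPM in WT libraries and 94.02, 110.8 and 109.4 CPM in DKO libraries (log2 fold change 1.01 ± 0.11, adjusted p = 0.00013). Fen1, the flap endonuclease that acts before it, read 38.05, 38.5 and 39.9 CPM in WT libraries and 51.2, 62.6 and 53.9 CPM in DKO libraries (log2 fold change 0.53 ± 0.09, adjusted p = 0.00234), which did not overlap but was under the fold minimum. Rpa2 had a log2 fold change of 0.19 ± 0.09 (adjusted p = 0.175). Rpa1, the large subunit of the single-strand binding complex, was the one member with a negative value, -0.15 ± 0.09 (adjusted p = 0.283), from 244.1, 233.0 and 236.4 CPM in WT libraries and 203.5, 221.2 and 217.0 CPM in DKO libraries. In TPM, where Rpa1 stood at 139.7 ± 2.6 in WT and 141.8 ± 1.3 in DKO Treg cells (SD, n = 3), its log2 ratio was 0.021, which is positive but below the median of 0.15 of all genes of at least 1 CPM on that scale.

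All 5 nucleotide supply genes rose. Rrm2, the S phase subunit of ribonucleotide reductase, read 36.98, 40.4 and 46.1 CPM in WT libraries and 90.1, 106.4 and 129.1 CPM in DKO libraries (log2 fold change 1.4 ± 0.14, adjusted p = 0.000103). Tk1, the cytosolic thymidine kinase, read 11.01, 14.8 and 14.8 CPM in WT libraries and 27.6, 40.3 and 32.9 CPM in DKO libraries (log2 fold change 1.31 ± 0.17, adjusted p = 0.000404). The groups were well apart for both genes. Tyms, the thymidylate synthase, Rrm1, the large reductase subunit, and Dut, the dUTPase, rose 2.16-fold, 1.98-fold and 1.62-fold, and the call of Dut was lost with the length correction.

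Chromatin assembly and fork protection had 2 genes each. Chaf1a, the large subunit of the histone chaperone CAF-1, read 6.08, 8.68 and 11.8 CPM in WT libraries and 24.2, 29.7 and 28.02 CPM in DKO libraries (log2 fold change 1.63 ± 0.20, adjusted p = 0.000273). Its partner Chaf1b read 15.4, 17.04 and 17.2 CPM in WT libraries and 21.6, 23.00 and 27.4 CPM in DKO libraries (log2 fold change 0.54 ± 0.16, adjusted p = 0.0285) and was under the fold minimum. Clspn, the adaptor through which ATR activates Chk1, read 4.6, 6.62 and 8.26 CPM in WT libraries and 15.3, 16.3 and 24.2 CPM in DKO libraries (log2 fold change 1.52 ± 0.24, adjusted p = 0.00115). Tipin, which travels with the fork, read 24.6, 21.8 and 28.5 CPM in WT libraries and 37.1, 41.04 and 37.5 CPM in DKO libraries (log2 fold change 0.63 ± 0.15, adjusted p = 0.0101), and its call was lost with the length correction and without WT Treg replicate 2 or DKO Treg replicate 2.

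**Figure D3:**
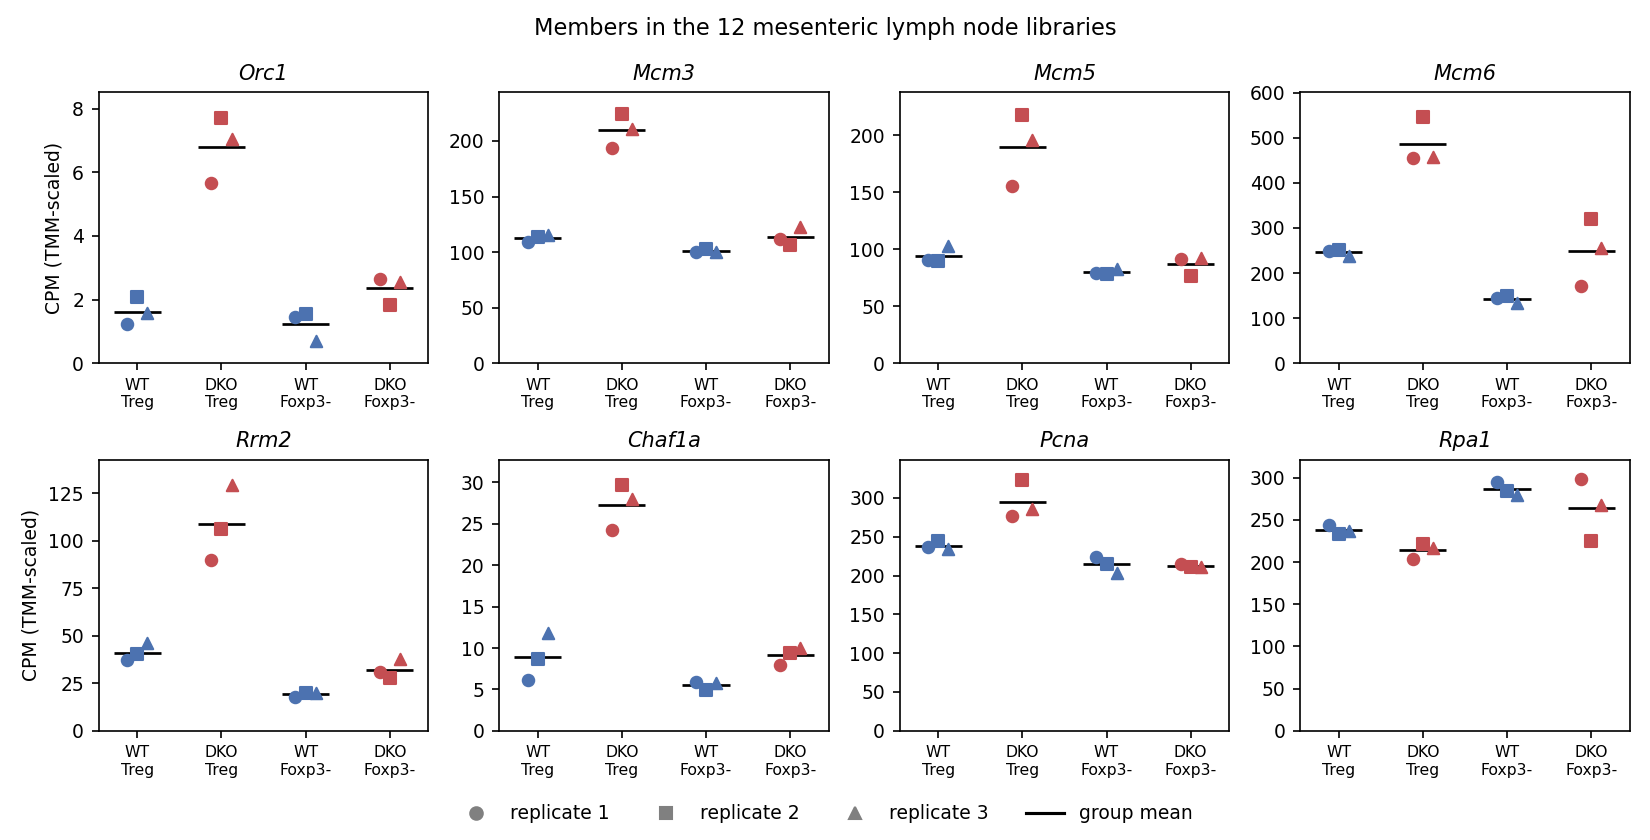
CPM after TMM scaling of 8 members in the 12 mLN libraries, by group, with a line at each group mean and y axes from 0. Orc1, Mcm3, Mcm5, Mcm6, Rrm2, Chaf1a and Pcna are higher in all 3 DKO Treg libraries than in any other library shown, and Rpa1 is not.

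The fold changes moved together with the scale. In mLN Treg cells the median of all genes of at least 1 CPM was -0.01 after TMM and 0.15 in TPM, and in Treg cells of spleen and pLN -0.01 and 0.29. The median of the members went from 0.78 to 0.92 and from 0.46 to 0.77.

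In Foxp3- cells of mLN the 5 members that rose were Clspn, Mcm6, Tyms, Rrm2 and Tk1. Clspn read 2.89, 2.5 and 2.89 CPM in WT libraries and 5.5, 4.57 and 6.72 CPM in DKO libraries (log2 fold change 1.02 ± 0.26, adjusted p = 0.0493). Mcm6 read 144.2, 150.1 and 134.1 CPM in WT libraries and 170.2, 320.0 and 254.7 CPM in DKO libraries (log2 fold change 0.80 ± 0.17, adjusted p = 0.0216). The DKO libraries of Mcm6 were far apart among themselves. In the same order those 3 libraries held 99.0, 252.8 and 157.5 CPM over the 5 plasma cell markers, where WT libraries held 94.2 to 100.04 CPM. Over the 6 CD8 and NK markers they held 64.9, 147.0 and 94.3 CPM, where WT libraries held 55.8 to 65.9 CPM. The highest of the CD8 and NK markers in the DKO libraries was Klrb1c, with a mean of 75.6 CPM. Their part in the result was not tested. Orc1 read 1.45, 1.55 and 0.698 CPM in WT libraries and 2.66, 1.83 and 2.56 CPM in DKO libraries and was not called (log2 fold change 0.90 ± 0.33, adjusted p = 0.157). All 3 DKO libraries lay above all 3 WT libraries for 25 of the 40 members, against 11.1% of all genes, and the median log2 fold change was 0.26. The count of 5 was 0 when any 1 of the 3 WT Foxp3- libraries was left out, where the share of all genes that rose was also lower, at 0.317% to 0.616%, and 0 when the 2 Foxp3- groups were fitted alone, where it was 0.00633%. It was 3 without WT Treg replicate 2, WT Treg replicate 3 or DKO Foxp3- replicate 2 (2.1% to 2.22% of all genes), and 2 without DKO Foxp3- replicate 3 (3.01%).

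The difference of DKO over WT was larger in Treg than in Foxp3- cells of mLN for 38 of 40 members, against 48.8% of all genes, with a median excess of 0.49 on the log2 scale beside -0.01 for all genes. Tested as the interaction of genotype and cell type, it passed an adjusted p of 0.05 for 2 members, while 0.119% of all genes passed in that direction. Both encode helicase subunits, Mcm3 (0.72 ± 0.11, adjusted p = 0.0151) and Mcm5 (0.89 ± 0.16, adjusted p = 0.0448). In Foxp3- cells Mcm3 read 100.4, 102.7 and 99.7 CPM in WT libraries and 112.1, 106.3 and 122.9 CPM in DKO libraries. Mcm5 read 79.4, 78.5 and 82.5 CPM in WT libraries and 91.4, 76.8 and 92.2 CPM in DKO libraries of those cells, where its groups overlapped. A fit that paired Treg and Foxp3- libraries of the same genotype and replicate number called Mcm3, Pole and Rrm1, where 0.22% of all genes passed, and gave Mcm5 an adjusted p of 0.0601. With any 1 of the 6 WT libraries left out 0 members passed, beside 0.0179% to 0.0538% of all genes. Without DKO Treg replicate 2 or 3 or DKO Foxp3- replicate 3 only Mcm3 passed, with 0.126% to 0.162% of all genes. Without DKO Foxp3- replicate 1, 3 members did and 0.335% of all genes, and without DKO Foxp3- replicate 2, 7 members and 0.838%. DESeq2 passed 14 members, Mcm3 and Mcm5 among them, against 0.985% of all genes.

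In Treg cells of spleen and pLN, where 1.14% of all genes rose, 0 members were called by edgeR, 2 (Mcm10 and Pole) by DESeq2, where 2.67% of all genes rose, and 16 were higher at an unadjusted p under 0.05, against 12.5% of all genes. Both DKO libraries lay above both WT libraries for 33 members, against 28.1% of all genes, and below them for 4. Clspn read 1.61 and 1.25 CPM in WT libraries and 8.59 and 3.21 CPM in DKO libraries (log2 fold change 2.04 ± 0.60, adjusted p = 0.0916). Mcm10 read 2.31 and 1.6 CPM in WT libraries and 9.73 and 5.87 CPM in DKO libraries (log2 fold change 2.0 ± 0.49, adjusted p = 0.0629). Chaf1a read 3.92 and 3.9 CPM in WT libraries and 18.4 and 7.78 CPM in DKO libraries (log2 fold change 1.74 ± 0.52, adjusted p = 0.0946). In these 3 genes DKO replicate 1 stood well above DKO replicate 2. Replicate 1 also held 39.95 against 16.5 CPM over the myeloid markers and 241.1 against 163.4 CPM over the plasma cell markers. WT Treg libraries held 5.15 to 8.56 and 163.5 to 166.0 CPM. The CD8 and NK markers summed to 131.9 and 101.2 CPM in DKO and 29.8 and 26.2 CPM in WT Treg libraries. Klrb1c was the highest of them in DKO libraries, with a mean of 98.2 CPM. The part of these markers in the result was not tested. Pole read 9.84 and 7.24 CPM in WT libraries and 34.9 and 17.7 CPM in DKO libraries (log2 fold change 1.63 ± 0.40, adjusted p = 0.0622). The 6 helicase subunits had log2 fold changes between 0.37 and 0.72, and Gins1, which rose in mLN, had 0.10 ± 0.41. The count of members called was 9 when the 2 Treg groups were fitted alone, where 5.54% of all genes rose. It was 12 without replicate 1 of the DKO Foxp3- cells and 12 without replicate 2, where 8.72% and 8.28% of all genes rose, and 5 without DKO Treg replicate 2, where 6.92% did. A fit without a library leaves 1 library in its group here, which is then assumed to vary like the other groups.

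Orc6, Pcna, Rpa1 and Rpa2 had negative values in Treg cells of spleen and pLN, none of them called. In TPM their log2 ratios were positive, at 0.25, 0.12, 0.13 and 0.17, but all 4 stayed below the median of 0.29 of all genes of at least 1 CPM on that scale. Pcna read 299.4 and 295.6 CPM in WT libraries and 233.0 and 281.8 CPM in DKO libraries (log2 fold change -0.21 ± 0.17, adjusted p = 0.542). In TPM it stood at 351.5 and 340.6 in WT and 386.1 and 364.4 in DKO libraries.

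In Foxp3- cells of spleen and pLN, where 0.77% of all genes rose, 0 members were called by edgeR, 1 (Rrm2) by DESeq2, where 2.15% of all genes rose, and 26 were higher at an unadjusted p under 0.05, against 9.08% of all genes. Both DKO libraries lay above both WT libraries for 33 members, against 20.8% of all genes. Orc1 read 1.37 and 0.563 CPM in WT libraries and 6.78 and 1.63 CPM in DKO libraries (log2 fold change 2.12 ± 0.64, adjusted p = 0.155). Mcm10 read 1.82 and 1.69 CPM in WT libraries and 9.1 and 3.11 CPM in DKO libraries (log2 fold change 1.8 ± 0.50, adjusted p = 0.12). Chaf1a read 3.11 and 2.33 CPM in WT libraries and 13.4 and 4.001 CPM in DKO libraries (log2 fold change 1.68 ± 0.53, adjusted p = 0.17). In all 3 genes DKO replicate 1 was far above DKO replicate 2. It was the higher of the pair for 38 of the 40 members, by a median of 0.70 on the log2 scale, whereas in DKO Treg cells replicate 1 was the higher for 29 members, by a median of 0.10. Without DKO Foxp3- replicate 2 the count of members called was 26, where 9.62% of all genes rose and 7.28% fell, and without replicate 1 it was 0, where 0.478% rose. Both fits hold a single DKO Foxp3- library, so the spread comes from the other groups alone. Replicate 1 also held 58.1 CPM over the 11 myeloid markers, 146.2 CPM over the 8 erythroid markers and 567.2 CPM over the 6 plasma cell markers, against 28.6, 41.2 and 185.2 CPM in replicate 2. Most of the erythroid sum was Tfrc, at 142.6 CPM in replicate 1 and 36.5 CPM in replicate 2. Gata1, at 1.88 and 3.41 CPM, and Klf1, at 0.063 and 0.074 CPM, were not higher in replicate 1. The plasma cell sum includes Xbp1, which read 201.2 and 100.5 CPM in the DKO libraries and 88.9 and 83.4 CPM in WT libraries. The 10 B cell markers summed to between 24.2 and 24.3 CPM in both DKO libraries. Their part in the result was not tested.

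For the interaction in spleen and pLN, 0% of all genes passed in the direction of a larger effect in Treg cells, and 0 members did by edgeR or DESeq2, with 0 at an unadjusted p under 0.05, against 3.19% of all genes. In the other direction 1 member, Gins1, had an unadjusted p under 0.05, against 2.35% of all genes. There 15 of the 40 members had a larger value in Treg cells, against 48.2% of all genes, with a median difference of -0.11 beside -0.02 for all genes. Without DKO Foxp3- replicate 2, 3 members (Gins1, Mcm6 and Rrm2) passed in the opposite direction, as did 2.55% of all genes. The tissues stand in separate tables, and no test between them was made.

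**Figure D4:**
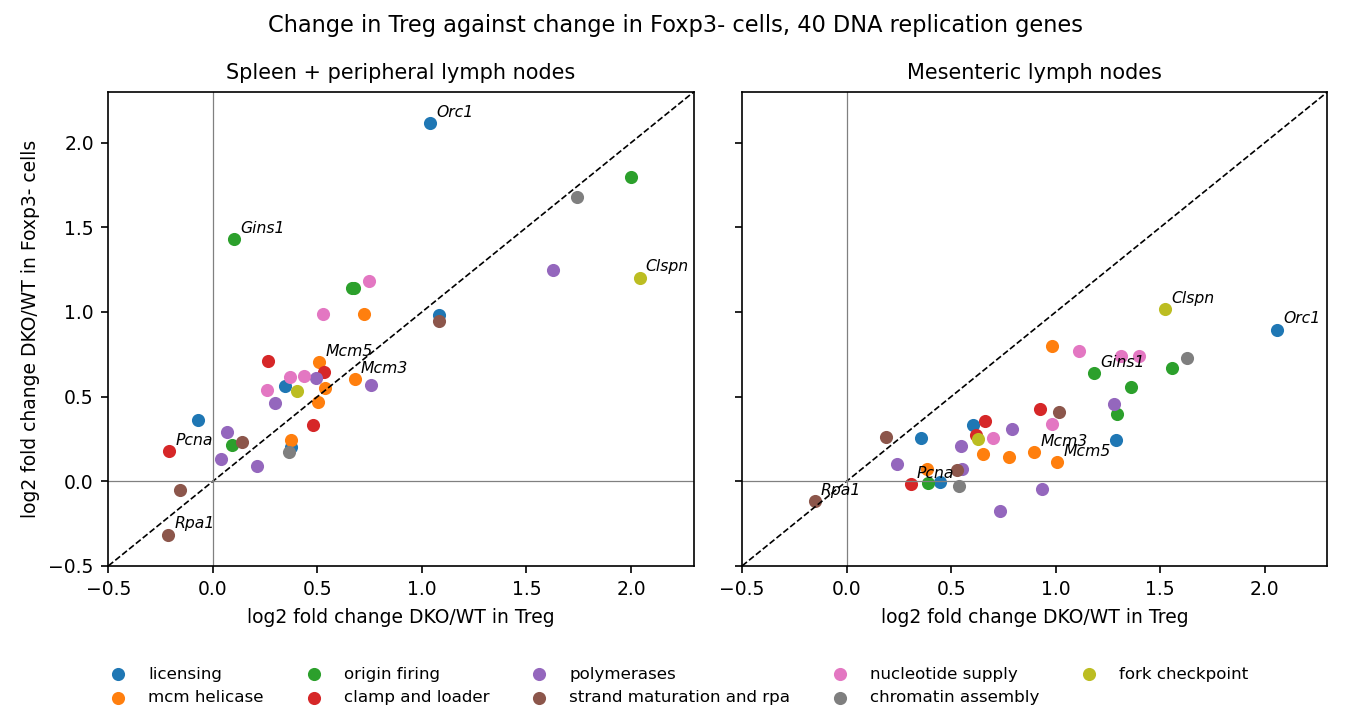
Log2 fold change of DKO over WT in Treg cells against that in Foxp3- cells, 1 point per member, coloured by role, with a dashed line of equal change, in each tissue. The value is larger in Treg cells for 38 of 40 members in mLN and for 15 of 40 in spleen and pLN.

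WT Treg and WT Foxp3- cells also differed. In mLN 12 members were higher in WT Treg cells, where 6.91% of all genes were, and 1 was lower, where 3.14% were. Clspn, at 4.6, 6.62 and 8.26 CPM in Treg and 2.89, 2.5 and 2.89 CPM in Foxp3- libraries, had a log2 fold change of 1.23 ± 0.26 (adjusted p = 0.00662). Tk1, at 5.36, 6.48 and 5.39 CPM in Foxp3- libraries, had 1.23 ± 0.19 (adjusted p = 0.000707), and Mcm10, at 2.21, 3.58 and 2.79 CPM there, had 1.13 ± 0.22 (adjusted p = 0.00436). The other 9 were Cdc6, Gmnn, Mcm6, Gins1, Rfc3, Pole, Rrm2, Tyms and Chaf1a. Pole2 was the one member lower in Treg cells, with 7.73, 7.53 and 8.66 CPM in Treg and 18.2, 14.04 and 15.2 CPM in Foxp3- libraries (log2 fold change -0.99 ± 0.17, adjusted p = 0.00199). With a gene length correction Cdc6, Chaf1a and Pole were not called. With 1 library left out Chaf1a lost its call in 9 of 12 fits, Cdc6 without WT Treg replicate 2 or any WT Foxp3- replicate, and Gins1 without WT Treg replicate 2 or 3 or WT Foxp3- replicate 1 or 3. Gmnn lost it without WT Treg replicate 3 or WT Foxp3- replicate 3, and Pole without WT Treg replicate 3. In DKO Treg cells Pole2 read 12.4, 14.7 and 12.6 CPM.

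In spleen and pLN, where 2.48% of all genes were higher in WT Treg cells, 0 members were called by edgeR or DESeq2, with 4 higher and 3 lower at an unadjusted p under 0.05, against 7.73% and 5.99% of all genes. The highest values were those of Gins1 (1.11 ± 0.43, adjusted p = 0.237), Tk1 (1.09 ± 0.30, adjusted p = 0.0728) and Orc1 (0.91 ± 0.66, adjusted p = 0.67). Both Treg libraries lay above both Foxp3- libraries for 25 members, against 28.1% of all genes. With the 2 WT groups fitted alone 5 members were called, where 7.77% of all genes were higher, and without either DKO Foxp3- replicate 4 were, where 5.31% and 5.2% were.

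Beyond the 40, 46 other replication genes were counted in mLN, and their median log2 fold change in Treg cells was 0.36. Of these 11 rose in DKO Treg cells and 0 fell, while 8.5% of all genes rose. The highest were Dna2, a nuclease of Okazaki fragments (2.72-fold), Uhrf1, which brings Dnmt1 to newly copied DNA (2.55-fold), and Dtl, which marks Cdt1 for destruction (2.52-fold). Orc2, Orc3, Orc4 and Orc5, the partners of Orc1, had values between -0.19 and 0.07. Of 30 mitotic genes 30 rose in mLN Treg cells, with a median of 1.52, and 15 in Foxp3- cells, with a median of 0.85. Of all genes 8.5% rose in those Treg cells and 3.12% in those Foxp3- cells. In spleen and pLN 4 of the 30 rose in Treg cells and 1 in Foxp3- cells, where 1.14% and 0.77% of all genes rose. Of the 45 other replication genes counted there 0 were called in either cell type by edgeR. At an unadjusted p under 0.05 in the same test, 11 and 9 of the 45 were higher, against 12.5% and 9.08% of all genes. By that cut 5 and 1 were lower, against 7.94% and 3.77%.

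Among 11135 other genes, those that followed the member mean most closely over the 12 mLN libraries were Mybl2 (Pearson r = 0.995), Hells (0.993), Uhrf1 (0.992), Bub1 (0.990), Tacc3 (0.989), Fignl1 (0.988), 2810417H13Rik (0.987), Cep55 (0.986), Tfrc (0.984) and Cdca8 (0.984). Over the 8 libraries of spleen and pLN their r lay between 0.951 and 0.990. The closest 50 of the 11135 genes held 15 of the 30 mitotic genes and 4 of the 46 other replication genes. The libraries share groups and scaling, so r is a description. Within the 40, the median r of a member with the mean of the others was 0.950 in mLN and 0.926 in spleen and pLN, and Rpa1 (-0.77) and Pole2 (-0.06) had negative values in mLN.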

How the data were processed

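RNA from sorted CD4+ T cells was sequenced in 20 libraries (stranded mRNA, single reads). The authors aligned reads to mm9 with TopHat2 (2.1.1), reporting at most 1 alignment for a read, and deposited raw counts per RefSeq gene made with featureCounts (Subread 1.4.3-p1). The authors also deposited TPM, whose calculation is not given in the sources used here. Reads that match a gene and a processed copy of it equally well, as may occur for Pcna, cannot be told apart in such counts.

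Samples were grouped by the labels, each tissue's table on its own. Counts were tested with edgeR (4.0.16) in R (4.3.3): quasi-likelihood test, TMM scaling, one fit per tissue over its 4 groups, genes with a total count of at least 1 (16357 in spleen and pLN, 16784 in mLN), Benjamini-Hochberg adjustment over all of them, calls where the adjusted p was 0.05 or less and, except for the interaction, a fold change of at least 1.5. The method was tested on simulated counts with known changes set in DKO Treg cells. Of 67 genes changed 1.5-fold it recovered 2 in spleen and pLN and 18 in mLN. Of 67 genes changed 2-fold it recovered 24 and 50, and of 66 changed 4-fold 59 and 59. Changes of 1.5-fold and 2-fold were thus found less often in spleen and pLN than in mLN. Log2 CPM for the member mean used a prior count of 2, and log2 values of TPM a pseudocount of 1. Depth was 9998478 to 15449158 counted reads, at which 3 counts are 0.172 to 0.299 CPM, and the biological coefficient of variation was 21.6% in spleen and pLN and 17.7% in mLN.

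The members and lists were chosen with earlier results of these data known. Named members are the 2 of each role with the largest fold change in DKO against WT Treg cells of mLN, those with the largest change in the other comparisons, and exceptions. Alternatives were DESeq2 (1.42.0), DESeq2 size factors, filterByExpr, a robust prior, the compared groups alone, no fold minimum, a gene length correction, a replicate block, and each library left out. In mLN, Treg and Foxp3- libraries with the same genotype and number deviated together (r between 0.11 and 0.39 in 6 pairs). These numbers were taken as pairs, an assumption that the labels do not state. The TPM scale for single members was added after seeing the data.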

Additional observations from a re-analysis of the deposited data

Results flagged for a closer look

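The change of DKO over WT differed between Treg and Foxp3- cells of mLN for Mcm3 (0.72 on the log2 scale) and Mcm5 (0.89), by the test of the interaction in edgeR. Both calls were lost when any 1 of the 6 WT libraries was left out, and Mcm5 had an adjusted p of 0.0601 in the edgeR fit that paired libraries within genotype, which also called Pole and Rrm1. For Orc6 the log2 fold change in Treg cells had opposite signs in the 2 tissues, with -0.073 in spleen and pLN and 0.36 in mLN, and for Pcna, with -0.21 and 0.31. For Orc6 and Pcna the difference between tissues was not tested, and neither was called in either tissue. On the TPM scale both were positive in both tissues, with 0.25 and 0.12 in spleen and pLN, below the median of 0.29 of all genes of at least 1 CPM, and 0.51 and 0.48 in mLN.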

How the results depend on the processing

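In mLN Treg cells the count of members called was 28 with DESeq2 (8.64% of all genes rose) and 22 with a gene length correction (7.7%). That correction lost Dut, Gmnn, Mcm2, Rfc3, Rfc4 and Tipin. With 1 library left out the count was 25 to 31, where 5.59% to 10.7% of all genes rose. The cause of the changes given here was not tested. In Treg cells of spleen and pLN the count was 0, and 2 with DESeq2 (2.67% of all genes), 9 with the compared groups alone (5.54%), 2 with the replicate block (1.2%), 1 with the length correction (1.49%) and 3 with both (1.51%). Foxp3- cells of that table gave 0, and 1 with DESeq2 (2.15%), and between WT cell types 0, and 5 with the compared groups alone (7.77%). Foxp3- cells of mLN gave 5, and 3 with the robust prior (1.72%), 0 with the compared groups alone (0.00633%) and 3 with the length correction (3.06%). For the interaction in mLN it was 2, and 14 with DESeq2 (0.985%), 1 with the replicate block (0.0953%), 1 with the length correction (0.131%) and 1 with both (0.149%). Between WT cell types in mLN 12 were higher, and 19 without the fold minimum (8.97%). With 1 library left out the counts ran from 0 to 12 and from 0 to 26 for Treg and Foxp3- cells of spleen and pLN, from 0 to 0 for a larger effect in Treg cells in the interaction there (3 members passed in the opposite direction without DKO Foxp3- replicate 2), from 0 to 4 between its WT cell types, from 0 to 6 for Foxp3- cells of mLN, from 0 to 7 for the interaction in mLN and from 8 to 15 between its WT cell types.

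The difference in the member mean in Treg cells of spleen and pLN was 0.53, and 0.75 as log2(TPM + 1) and 0.40 over members of at least 10 CPM. With 1 library left out it ran from 0.43 to 0.62, and from 0.23 to 0.97 in Foxp3- cells, 0.18 to 0.28 between WT cell types, and in mLN from 0.78 to 0.92, 0.27 to 0.35 and 0.33 to 0.43. In TPM the sign turned in Treg cells of spleen and pLN for Orc6 (0.25), Pcna (0.12), Rpa1 (0.13) and Rpa2 (0.17), and in mLN for Rpa1 (0.021), all below the median of all genes of at least 1 CPM on that scale (0.29 and 0.15). Of the other fits of single members 1034 kept direction and side of the threshold, 56 passed it newly, 42 lost it and 0 turned sign.

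Across genotypes, samples of the same number in mLN correlated between -0.048 and 0.114, and they were not taken as pairs. Within genotypes the range was 0.110 to 0.390, so the ranges touch and r alone does not settle the pairing. In spleen and pLN they correlated between 0.155 and 0.221 across and between 0.213 and 0.336 within genotypes, where each group has only 2 numbers, WT and DKO samples are from different mice, and the labels name no shared batch. The study took both DKO cell types of that table from the same 2 mice, and pairing within genotype there gave 0 members in the interaction and 0 between WT cell types. The replicate block gave the counts above, and in Treg cells of spleen and pLN it called Mcm10 and Pole, and with the length correction also Lig1. Pairing within genotype in mLN gave 3 members in the interaction and left the 12 and 1 between WT cell types as they were.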
